A study of Mus musculus with 16 samples.

Results

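This set holds 10 mouse genes, Emp1, C2cd4b, Ang, Mlf1, Rrad, Blnk, Cav1, Slc16a6, Nceh1 and Tshr, out of 18193 genes named on the arrays. The genes were chosen by measured values of these arrays, because their response to KCl, or their level after 6 h of KCl, differed between cortical neurons with an shRNA against c-Fos and those with a control shRNA. The platform annotation gives them 17 probe sets, which are the units an array measures, out of 45037 that are not array controls. Emp1 has 2 probe sets, Ang, Nceh1 and Tshr have 3 each, and the other genes have 1. Since the picking used the differences between the shRNAs at 0, 3 and 6 h and the changes from 0 h, those values are given as a description with no test, and the pick had no numeric threshold. Only the difference at 1 h is given with p-values for the 10 genes. For the change from 1 h to 3 h only counts from the planned fits are given, and nothing is read from them.

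The data were 16 single-colour Affymetrix mouse genome 430 2.0 arrays of RNA from cultured cortical neurons of C57BL/6 embryos at E16.5. All cultures received lentivirus for 6 h on day 5 in vitro (DIV5) with 6 µg/ml polybrene, carrying either the c-Fos shRNA or a control shRNA against firefly luciferase. On DIV7 they were silenced and exposed to KCl for 0, 1, 3 or 6 h, which makes 8 groups of 2 arrays, and 10 µg of labelled cDNA went on each array. The 0 h groups are therefore silenced, infected neurons without KCl. The labels set apart no second hairpin, so an effect of lost c-Fos and one of that hairpin alone cannot be told apart. The 2 arrays of each group are labelled biological replicates, but separate dissections are not stated, and the p-values cover only the spread among these arrays.

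Raised extracellular KCl depolarises neurons, and the calcium that then enters through voltage-gated channels switches on immediate early genes such as Fos. The c-Fos protein pairs with Jun proteins to form AP-1, a transcription factor that binds DNA elements of the form TGANTCA, most often with G or C in the middle. CREB, which is already present at rest, binds the cyclic AMP response element TGACGTCA. Genes that follow the early wave by hours are called late-response genes, and many of them are switched on in only some types of neuron.

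The targeted gene, Fos, was lower in c-Fos shRNA neurons at all 4 times, in arrays that did not overlap. With control shRNA its arrays read 261 and 232 without KCl, 14633 and 14719 after 1 h, 13638 and 13308 after 3 h, and 11960 and 11898 after 6 h. The c-Fos shRNA arrays read 118 and 152, 7728 and 9623, 3763 and 4297, and 3142 and 3340. The c-Fos shRNA mean was 54.8%, 59.1%, 29.9% and 27.2% of the control mean in turn, and the c-Fos shRNA arrays with KCl were all above those without. The 2 arrays within a group had a correlation of 0.985 to 0.992 over the probe sets tested. Neuron markers were abundant in every array, with a summed intensity over 11 markers of 66593 to 77874 with control shRNA and 63779 to 79310 with c-Fos shRNA. Of 10 microglia markers only 3 were above the low-signal filter, with sums over the list of 382 to 628 and 439 to 560. The sums for 10 astrocyte markers were 23031 to 32220 and 20903 to 29520, those for 12 vascular and fibroblast markers were 1498 to 2494 and 1503 to 2665, and those for 7 oligodendrocyte lineage markers were 9054 to 17125 and 10270 to 15948. Between the shRNAs at 6 h, limma called 0 of 10 astrocyte markers (3 at an unadjusted p under 0.05). It called 0 of 5 tested oligodendrocyte markers (0 at an unadjusted p under 0.05) and 1 of 3 microglia markers (1 at an unadjusted p under 0.05). Of 11 neuron markers 4 were called (9 at an unadjusted p under 0.05), 3 of these 4 higher and 1 lower. The lower one, Rbfox3, was at -0.74 ± 0.12 at 0 h and -0.81 ± 0.12 at 6 h. Of all probe sets tested, 17.2% were called at 6 h, while each marker was read by its brightest probe set. Of the 3 probe sets for 18S ribosomal RNA, that for the 3′ end read 4805 to 5602 with control shRNA and 3839 to 4558 with c-Fos shRNA, over 8 arrays each, while the other 2 overlapped between the shRNAs. The part of ribosomal RNA in the results was not tested.

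Promoters are shown first because AP-1 is the factor in question. RefSeq (GRCm38.p6) gave 9 promoters for 7 of the 10 genes. The 250 bases before each start were searched for the AP-1 element TGANTCA, which reads the same on both strands, and for TGACGTCA, which does too. Of 32851 promoters in the same table, 6.75% held the AP-1 element, 0.338% held it 2 or more times, and 1.55% held TGACGTCA. Promoters of 2 of the 7 genes, Emp1 and Mlf1, held a match. One Emp1 promoter, chr6:135362681-135362930 on the plus strand, held 2 matches to TGANTCA, and the other Emp1 promoter held none. They were TGAGTCA at 145 to 139 and TGATTCA at 25 to 19 bases before the start. The Mlf1 promoter, chr3:67373847-67374096 on the plus strand, held 1 match to TGANTCA, which was TGATTCA, at 224 to 218 bases and 1 TGACGTCA at 54 to 47 bases before the start. Both are printed 5′ to 3′, with the matches in capitals.
Emp1: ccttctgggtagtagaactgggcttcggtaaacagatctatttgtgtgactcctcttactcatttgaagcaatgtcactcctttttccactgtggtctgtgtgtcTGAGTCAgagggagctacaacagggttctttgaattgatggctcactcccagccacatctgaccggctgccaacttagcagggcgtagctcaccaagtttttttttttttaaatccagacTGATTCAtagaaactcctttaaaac
Mlf1: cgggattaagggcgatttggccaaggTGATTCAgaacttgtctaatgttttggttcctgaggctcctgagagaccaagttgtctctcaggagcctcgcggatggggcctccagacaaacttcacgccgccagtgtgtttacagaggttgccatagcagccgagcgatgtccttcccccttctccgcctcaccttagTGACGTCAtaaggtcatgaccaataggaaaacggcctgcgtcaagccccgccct
A match is a string of letters and not a measured binding site, and no binding data were used here.

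The genes followed several courses over time. Emp1, C2cd4b, Ang, Mlf1, Rrad and Blnk were higher after 6 h of KCl than before it with control shRNA, by more than with c-Fos shRNA. Cav1 differed before KCl and converged. Slc16a6 and Nceh1, and also Emp1 by its probe set 1416529_at, were lower with c-Fos shRNA throughout, and Tshr moved in opposite directions at 6 h. Values are given as the deposited intensity of each array, replicate 1 then replicate 2. Differences are on the scale of log2(intensity + 16) after quantile normalization, with the standard error of the fit, and this scale understates changes of dim probe sets.

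**Figure D1:**
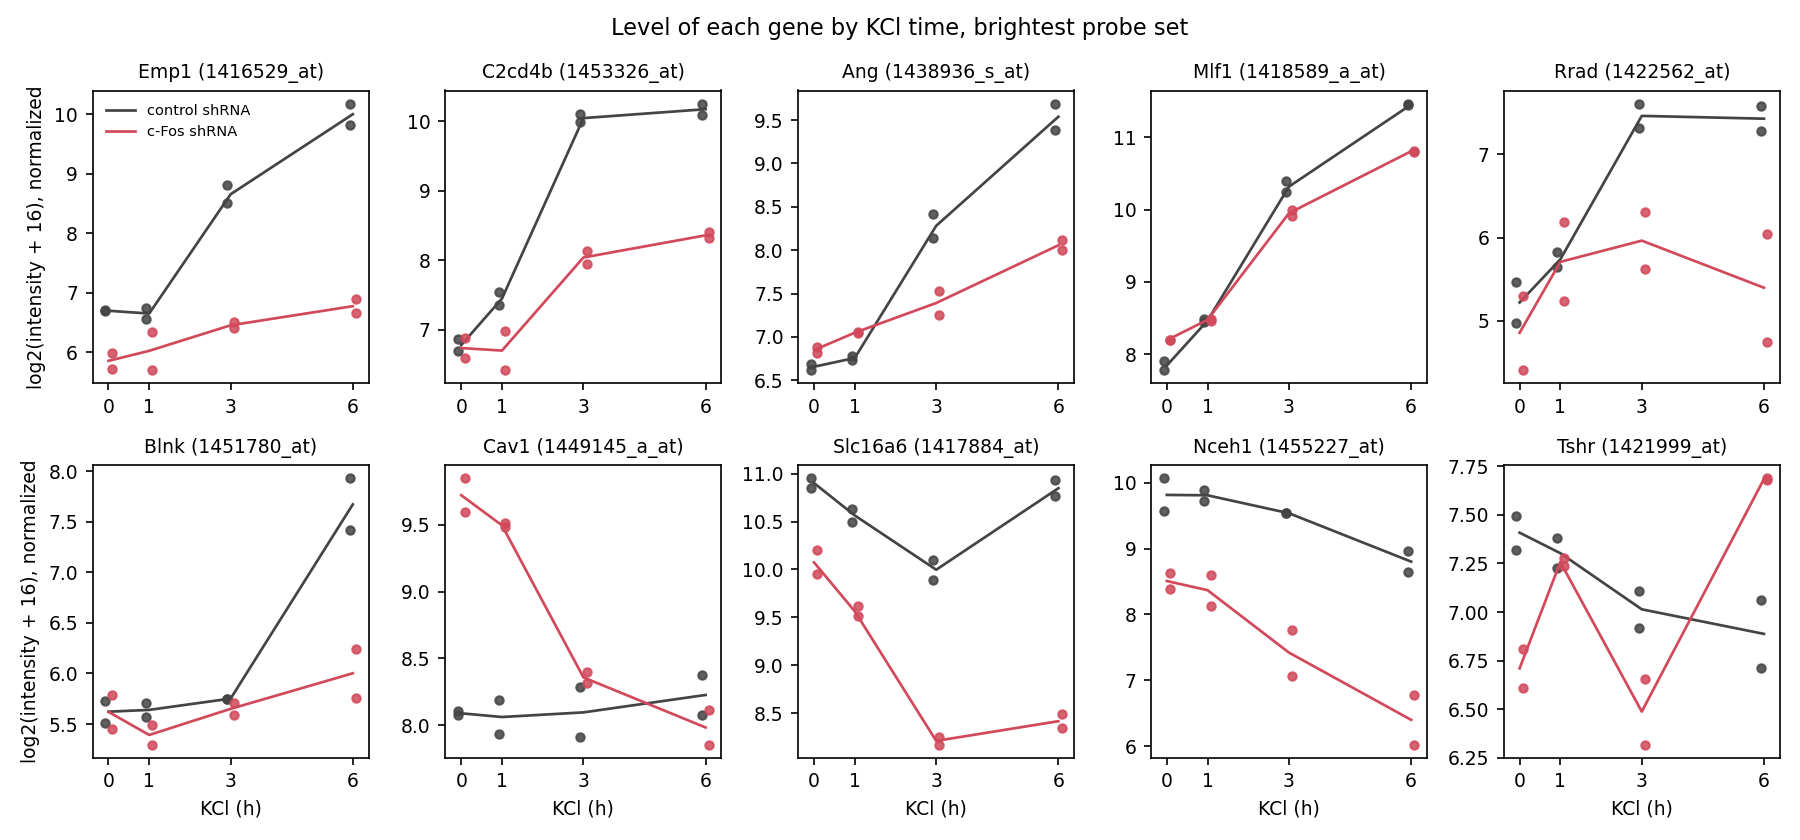
Normalized log2(intensity + 16) of the brightest probe set of each of the 10 genes against hours of KCl. Points are single arrays, 2 per group, and lines join the group means of control shRNA and c-Fos shRNA. The lines part from 1 h for C2cd4b and by 3 or 6 h for Rrad and Blnk, and part further for Emp1, which is lower with c-Fos shRNA from 0 h. For Ang and Mlf1 the c-Fos shRNA line starts slightly higher, crosses, and is lower by 3 h. The lines start apart and meet for Cav1, stay apart for Slc16a6 and Nceh1, and cross for Tshr, where c-Fos shRNA ends higher.

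Emp1 encodes epithelial membrane protein 1, a membrane protein of the PMP22 family. Its probe set 1416529_at read 89.4 and 89.7 without KCl with control shRNA, 90.6 and 79.9 after 1 h, 421 and 346 after 3 h, and 1105 and 874 after 6 h. The c-Fos shRNA arrays read 46.5 and 37.1 without KCl, 34.5 and 65.8 after 1 h, 66.1 and 76.7 after 3 h, and 96.1 and 88.8 after 6 h. The control arrays climbed between 1 h and 6 h, and the c-Fos shRNA arrays ended at about the level that control neurons had before KCl. The 6 h mean was 11.05 times the 0 h mean with control shRNA and 2.21 times with c-Fos shRNA. Emp1 with c-Fos shRNA was at 46.7% of control at 0 h and 9.35% at 6 h, a log2 difference of -0.84 ± 0.21 and -3.23 ± 0.21. These are bulk cultures, in which fewer cells of a type and less RNA per cell cannot be told apart. The other probe set, 1459171_at, did not show the pattern. It stayed between 45.7 and 95.3 in all arrays, with a difference of 0.25 ± 0.19 at 6 h.

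C2cd4b encodes a member of a small family of C2-domain proteins. With control shRNA it read 88.9 and 104 without KCl, 151 and 179 after 1 h, 1073 and 990 after 3 h, and 1164 and 1064 after 6 h. In neurons with c-Fos shRNA it read 78.3 and 104 without KCl, 66.6 and 112 after 1 h, 259 and 231 after 3 h, and 278 and 329 after 6 h. The arms overlapped at 0 h and separated from 1 h on, and the control level was already near its end at 3 h. The 6 h mean was 11.57 times the 0 h mean with control shRNA and 3.33 times with c-Fos shRNA. The difference between the shRNAs was -0.04 ± 0.18 without KCl, -2.0 ± 0.18 after 3 h and -1.81 ± 0.18 after 6 h.

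Ang encodes angiogenin, a secreted ribonuclease that promotes blood vessel growth. Its probe set 1438936_s_at read 83.0 and 90.4 without KCl, 90.0 and 95.8 after 1 h, 321 and 264 after 3 h, and 768 and 645 after 6 h with control shRNA. Under c-Fos shRNA it read 98.7 and 98.3, 113 and 118, 163 and 137, and 240.5 and 247. The c-Fos shRNA arrays were slightly above control at 0 and 1 h and below it at 3 and 6 h, without overlap at any of the 4 times. The 6 h mean was 8.14 times the 0 h mean with control shRNA and 2.48 times with c-Fos shRNA, and the difference at 6 h was -1.48 ± 0.14. The probe set 1438937_x_at gave -1.34 ± 0.19 at 6 h. The dim 1450717_at, below the filter, read 161 and 127 at 6 h with control shRNA against 50.7 and 33.4. The suffixes _s_at and _x_at mark probe sets that can bind several transcripts, so closely related angiogenin copies could share this signal. RefSeq gives Rnase4, another secreted ribonuclease, the same annotated start as Ang. Rnase4 had a 6 h change of 1.51 ± 0.19 with control shRNA (limma adjusted p = 7.49e-05) and of 0.36 ± 0.19 with c-Fos shRNA (adjusted p = 0.194). The difference between these changes was -1.15 ± 0.27 (adjusted p = 0.104, and 0.00379 with the replicate number as a block).

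Mlf1 encodes myeloid leukemia factor 1, an adaptor protein known from blood cells. It read 208 and 231 without KCl, 357 and 352 after 1 h, 1326 and 1185 after 3 h, and 2799 and 2788 after 6 h with control shRNA. The c-Fos shRNA arrays read 267 and 292, 351 and 349, 931 and 995, and 1713 and 1785. Both arms were higher at each later time, and the arms were closest at 1 h, where the normalized values overlapped. The 6 h mean was 12.74 times the 0 h mean with control shRNA and 6.26 times with c-Fos shRNA. The difference ran from 0.35 ± 0.09 at 0 h through 0.01 at 1 h to -0.65 at 6 h, so c-Fos shRNA neurons began higher and ended lower.

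Rrad and Blnk were dim. Rrad encodes an RGK small GTPase, a protein that inhibits voltage-gated calcium channels. It read 15.3 and 28.0 without KCl, 33.1 and 41.1 after 1 h, 141 and 179 after 3 h, and 136 and 173 after 6 h with control shRNA. In neurons with c-Fos shRNA it read 23.2 and 5.54, 20.6 and 56.9, 32.2 and 65.1, and 10.4 and 51.7. The arms overlapped at 0 and 1 h and not at 3 and 6 h. The difference at 6 h was -2.03 ± 0.45, and -1.25 with a pseudocount of 64 in place of 16. It was -2.68 without c-Fos shRNA replicate 2 at 6 h and -1.38 without replicate 1. The group means of Rrad were above the filter threshold of 5.79 only at 3 h in both arms and at 6 h with control shRNA. Blnk encodes the B cell linker, an adaptor that joins the kinase Syk to phospholipase C gamma. Its control arrays read 29.5 and 37.2 without KCl, 30.8 and 36.8 after 1 h, 38.5 and 38.5 after 3 h, and 150.3 and 224 after 6 h. Under c-Fos shRNA it read 27.3 and 39.9, 22.3 and 28.5, 31.3 and 37.7, and 37.1 and 61.8. Blnk thus stood out only in the 6 h control arrays, at a difference of -1.67 ± 0.22, and its group means passed that threshold only in the 6 h groups.

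**Figure D2:**
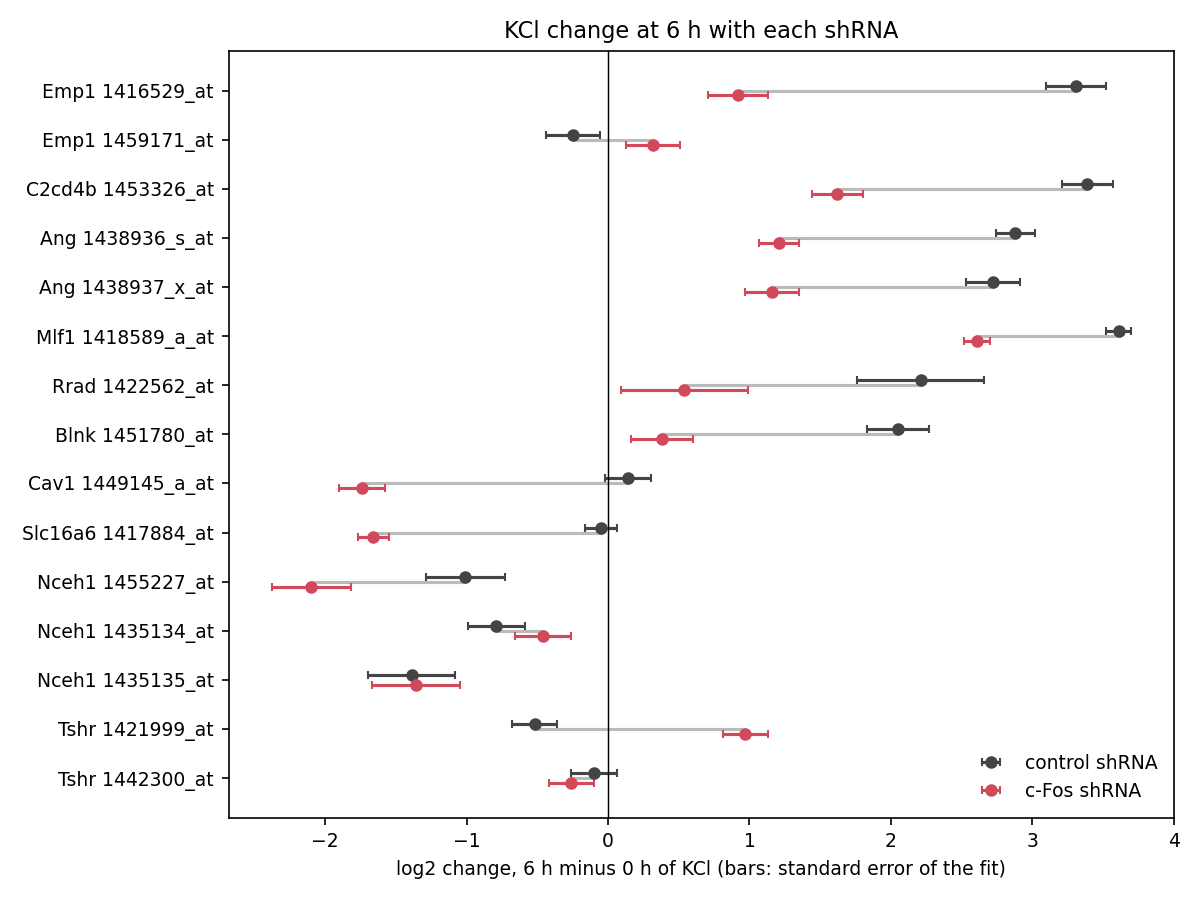
Change from 0 h to 6 h of KCl in log2 units for the 15 probe sets above the filter, with control shRNA and c-Fos shRNA. Points are differences of group means (2 arrays per group), and bars are the standard error of the fit. Emp1 1416529_at sat at 3.31 with control shRNA and 0.92 with c-Fos shRNA, and Tshr 1421999_at at -0.52 and 0.97.

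Cav1 encodes caveolin-1, the main coat protein of caveolae, which are small pits in the cell membrane. With control shRNA it read 262 and 261 without KCl, 236 and 288 after 1 h, 221 and 293 after 3 h, and 246 and 309 after 6 h. The c-Fos shRNA arrays read 878 and 796 without KCl, 726 and 739 after 1 h, 294 and 318 after 3 h, and 198 and 268 after 6 h. The control groups all overlapped their neighbours, while the c-Fos shRNA arrays started at 320.4% of control and had come down to the control range by 6 h. The difference went from 1.63 ± 0.16 at 0 h to -0.24 ± 0.16 at 6 h, where the arms overlapped. The change from 0 h to 6 h was 0.14 with control shRNA and -1.74 with c-Fos shRNA. Cav1 is also abundant in blood vessel cells and fibroblasts. Of 12 markers of those cells 8 were tested, and none was called between the shRNAs at 1 h or at 6 h by limma, with 0 of 8 at an unadjusted p under 0.05 at either time. Their summed intensity at 0 h was 1498 and 2455 with control shRNA and 1503 and 2520 with c-Fos shRNA. The standard errors of these markers were as large as 0.95 for Dcn and 0.75 for Col3a1, and no calls were made at 0 h. The part of these cells in the Cav1 difference was not tested.

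Slc16a6 encodes a transporter of the monocarboxylate family. With control shRNA it read 1932 and 1818 without KCl, 1483 and 1629 after 1 h, 1073 and 921 after 3 h, and 1913 and 1720 after 6 h. In neurons with c-Fos shRNA it read 1109 and 1013, 743 and 792, 266 and 287, and 315 and 317. Control neurons dipped at 3 h and were back at the 0 h range by 6 h, whereas c-Fos shRNA neurons stayed low. The c-Fos shRNA mean was 56.6%, 49.3%, 27.7% and 17.4% of control in turn. The difference was -0.83 ± 0.11 at 0 h and -2.43 ± 0.11 at 6 h.

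Nceh1 encodes neutral cholesterol ester hydrolase 1, an enzyme that frees cholesterol from its stored esters. Its probe set 1455227_at read 741 and 1047 without KCl, 867 and 988 after 1 h, 709 and 717 after 3 h, and 361 and 472 after 6 h with control shRNA. Under c-Fos shRNA it read 310 and 402, 266 and 387, 114 and 202, and 47.2 and 98.7. Both arms came down with KCl, and c-Fos shRNA was lower at each time. The difference was -1.31 ± 0.28 at 0 h and -2.40 ± 0.28 at 6 h. The 3 probe sets, which share 1 target record, differed on whether the gap widened. The change from 0 h to 6 h with control and with c-Fos shRNA was -1.01 and -2.10 for 1455227_at, -1.39 and -1.36 for 1435135_at, and -0.79 and -0.46 for 1435134_at. A lower level at 0 h was common to the 3, at -1.31, -1.84 ± 0.31 and -0.96 ± 0.20.

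Tshr encodes the receptor for thyroid-stimulating hormone. Its probe set 1421999_at read 168 and 149 without KCl, 135 and 157 after 1 h, 121 and 107 after 3 h, and 116 and 90.0 after 6 h with control shRNA. The c-Fos shRNA arrays read 92.8 and 83.3, 131 and 142, 61.5 and 87.0, and 173 and 197. The arms changed order, with c-Fos shRNA lower at 0 and 3 h, overlapping at 1 h and higher at 6 h. The change from 0 h to 6 h was -0.52 ± 0.16 with control shRNA and 0.97 ± 0.16 with c-Fos shRNA. This rests on 1 probe set of 3. The probe set 1442300_at read 71.6 to 107.6 in all arrays, with a difference of -0.05 ± 0.16 at 6 h, and the dim 1428001_at read 2.82 to 27.7.

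**Figure D3:**
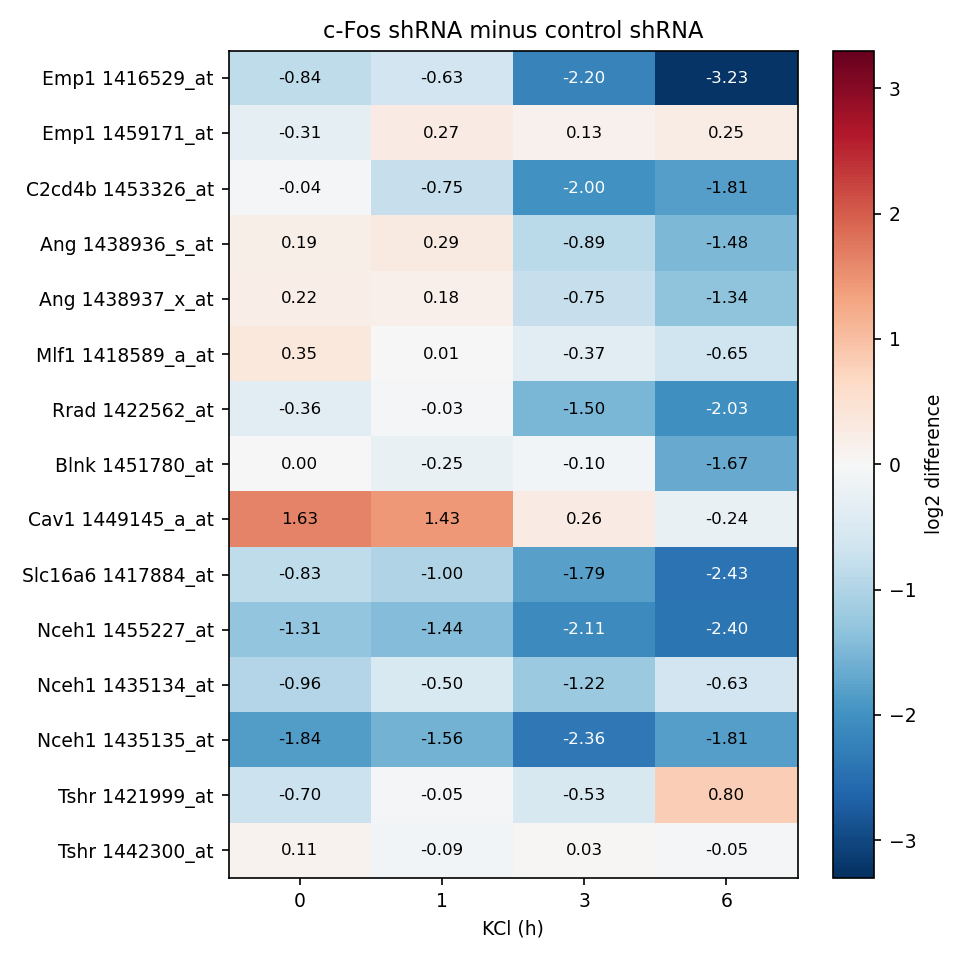
Log2 difference, c-Fos shRNA minus control shRNA, for the 15 probe sets above the filter (rows) at 0, 1, 3 and 6 h of KCl (columns), from group means of 2 arrays. Blue is lower and red is higher with c-Fos shRNA. Cav1 is red at 0 and 1 h (1.63 and 1.43), and Slc16a6 and Nceh1 are blue in every column.

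Counted over the 17 probe sets, 13 had arrays that did not overlap between the shRNAs at 0 h, against 46.9% of all probe sets on the arrays. Of these, 5 were higher with c-Fos shRNA (23.6% of all) and 8 lower (23.3%). At 1 h there were 11 (45.2% of all), at 3 h 14 (47.2%) and at 6 h 15 (47.4%), of which 13 were lower (23.2%) and 2 higher (24.2%). For the change from 0 h to 6 h there were 12 with control shRNA (53.8% of all) and 13 with c-Fos shRNA (55.4%). The pick used these contrasts, other than that at 1 h, so nothing is read from the counts. The interactions of shRNA and KCl subtract the same 0 h arrays at every time.

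At 1 h, limma with Benjamini-Hochberg adjustment over 31526 probe sets called 5 of the 15 that passed the filter (Rrad and Blnk through their later groups), in 4 genes, against 14.5% of all probe sets tested. Of these, 1 was higher with c-Fos shRNA (7.56% of all) and 4 were lower (6.97%). Cav1 was higher with c-Fos shRNA by 1.43 ± 0.16 (adjusted p = 0.000108), in both arrays against both. Slc16a6 was lower, at -1.0 ± 0.11 (adjusted p = 0.000132), and Nceh1 was lower, at -1.44 ± 0.28 with 1455227_at (adjusted p = 0.00469) and -1.56 ± 0.31 with 1435135_at (adjusted p = 0.00453). The remaining Nceh1 probe set, 1435134_at, was at -0.5 ± 0.2 and was not called (adjusted p = 0.125). The arrays of these 3 genes also did not overlap between the shRNAs at 0 h. C2cd4b was lower, at -0.75 ± 0.18 (adjusted p = 0.0132), and its arms overlapped at 0 h. The C2cd4b call was lost without c-Fos shRNA replicate 1 at 1 h (-0.47, adjusted p = 0.111) or without control replicate 2 at 1 h (-0.65, adjusted p = 0.0954). That of Nceh1 1435135_at was lost without control replicate 1 at 1 h (-1.21, adjusted p = 0.0630). Emp1 1416529_at was at -0.63 ± 0.21 (adjusted p = 0.0746), at an adjusted p of 0.0284 with the replicate number as a block and of 0.0158 without c-Fos shRNA replicate 2 at 1 h (-0.95). Arrays with the same replicate number deviate together, so the 1 h arrays are not fully independent of those the pick used. Cav1, Slc16a6 and Nceh1 also differed at 0 h already, which the pick used. Nothing is therefore read from the count of 5 against 14.5%.

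The course from 1 h to 3 h is described with no p-value for any single gene, since the pick used the 3 h arrays. C2cd4b, Mlf1, Emp1 1416529_at, Rrad and both Ang probe sets were higher at 3 h than at 1 h in the mean of both shRNAs, by 1.97 ± 0.12 for C2cd4b, 1.66 ± 0.06 for Mlf1 and 1.22 ± 0.15 for Emp1. Slc16a6, Nceh1, Cav1 and Tshr 1421999_at were lower, with Slc16a6 at -0.96 ± 0.08. The Cav1 mean of -0.55 joins a control change of 0.03 and a c-Fos shRNA change of -1.14. Blnk was at 0.19 ± 0.16, and its arrays at 3 h were still near those at 0 h. By arm, the change was 2.01 ± 0.21 with control shRNA and 0.43 ± 0.21 with c-Fos shRNA for Emp1 1416529_at, and 1.52 ± 0.14 and 0.34 ± 0.14 for Ang 1438936_s_at. Both were smaller increases with c-Fos shRNA. Slc16a6 was lower at 3 h in both arms, with changes of -0.57 ± 0.11 and -1.35 ± 0.11. The limma fit of the averaged change had 11 of the 15 probe sets under its threshold (23.9% of all), 6 higher (11.0% of all) and 5 lower (13.0%). That of the difference between the shRNAs in this change had 0 of 13 (0.00634% of all; 7 at an unadjusted p under 0.05), Cav1 and C2cd4b left out, and 3 with the replicate block (0.641% of all). Both fits were planned as tests, but they use the 3 h arrays of the pick. The members could exceed the shares over all probe sets through the pick alone, so nothing is read from these counts.

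Relatives of the 10 genes, by family or pathway, were counted beside them. Of 66 listed relatives 54 had a probe set and 32 passed the filter, each by its brightest probe set. The shares over all probe sets tested, here and below, include dimmer probe sets of the same genes, so they are not like for like. At 6 h, 8 of the 32 differed between the shRNAs (1 higher and 7 lower), which is 25.0% against 17.2% of all probe sets tested. Leaving out 1 array moved this count to between 4 and 8, with 4 without c-Fos shRNA replicate 2 or control replicate 1 at 6 h and 5 without c-Fos shRNA replicate 1 at 6 h. The 6 h change was called in 10 of 32 with control shRNA (31.2% against 35.4%) and in 11 of 32 with c-Fos shRNA (34.4% against 32.1%). The difference between those changes was called in 0 of 32 (0.387% of all), with 3 at an unadjusted p under 0.05 by limma and 2 called with the replicate block, Rnase4 and Rnh1 (-0.72, adjusted p = 0.0180 with the block).

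The other RGK GTPases, Gem and Rem2, rose with KCl in both arms, where the 6 h change of Rrad was 2.21 with control shRNA and 0.54 with c-Fos shRNA. The latter was -0.11 without c-Fos shRNA replicate 2 at 6 h and 1.19 without replicate 1. Gem changed by 2.84 ± 0.27 with control shRNA (limma adjusted p = 7.85e-06) and 2.22 ± 0.27 with c-Fos shRNA (6.32e-05), and Rem2 by 2.63 ± 0.14 (1.37e-07) and 2.76 ± 0.14 (1.63e-07). Both were lower with c-Fos shRNA at 6 h, at -0.87 (adjusted p = 0.0456) and -0.73 (adjusted p = 0.00404). They were also lower at 1 h, at -1.03 (adjusted p = 0.0235) and -0.93 (adjusted p = 0.000929). At 0 h the difference was -0.25 ± 0.27 for Gem and already -0.86 ± 0.14 for Rem2. The Gem calls were not stable. That at 1 h was lost without any one of the 4 arrays of 1 h (-0.93 to -1.12), and that at 6 h in 5 other settings of normalization, pseudocount, filter or trend (-0.83 to -0.91) and without any one of the 12 arrays of 1, 3 or 6 h (-0.78 to -0.96).

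Among 7 monocarboxylate transporter relatives, 3 were lower with c-Fos shRNA at 6 h, which is 42.9% against 17.2% of all probe sets tested. Slc16a1 was lower, at -1.20 ± 0.09 (adjusted p = 8.91e-06) and Slc16a9 at -1.34 ± 0.14 (6.96e-05), and both were also lower at 1 h, at -0.81 (0.000132) and -1.38 (5.87e-05). The third was Slc16a7, at -0.73 (0.00671), named after its value was seen, and its call was lost without c-Fos shRNA replicate 1 at 6 h (-0.63, adjusted p = 0.0597). Before KCl, at 0 h, the difference was already -0.95 ± 0.09 for Slc16a1 and -1.25 ± 0.14 for Slc16a9, and -0.20 ± 0.16 for Slc16a7. Slc16a1 rose with KCl in both arms, by 1.80 and 1.55 (adjusted p = 9.81e-08 and 4.54e-07), where Slc16a6 was at -0.05 and -1.66. In the mean of both shRNAs, Slc16a13 fell from 1 h to 3 h by 0.89 ± 0.17 (adjusted p = 0.00253). Its difference between the shRNAs was 0.12 at 6 h.

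In the remaining families few relatives were called. Emp2 was at -0.06 ± 0.33, Mlf2 at 0.03 ± 0.07 and Cav2 at -0.41 ± 0.35 between the shRNAs at 6 h, none called. C2cd4c, the relative of C2cd4b on the array, fell with KCl in both arms, with 6 h changes of -1.40 and -1.85 (adjusted p = 3.81e-05 and 6.39e-06), and was higher with c-Fos shRNA at 1 h by 0.63 (adjusted p = 0.0223; 0.168 without c-Fos shRNA replicate 2 and 0.187 without control replicate 1 at 1 h). Of 5 Blnk pathway genes tested only Grb2 was called at 6 h, higher by 0.56 ± 0.12 (adjusted p = 0.00654; 0.0531 without c-Fos shRNA replicate 2 and 0.0688 without control replicate 1 at 6 h), with Syk at 0.00 ± 0.18. Rnh1, which encodes the inhibitor of angiogenin, was higher with c-Fos shRNA at 1 h by 0.93 (adjusted p = 0.000929) and was at 0.23 (adjusted p = 0.313) at 6 h. Rnase4 was lower at 6 h, at -0.71 ± 0.19 (adjusted p = 0.0258), and Cavin1, a caveola component named after its value was seen, at -0.72 ± 0.20 (adjusted p = 0.0297). Of the 5 tested relatives of Cav1 only this 1 was called, and Cavin2 went the other way, at 1.08 ± 0.39 (adjusted p = 0.085). The Rnase4 call was lost without c-Fos shRNA replicate 2 (-0.48) or control replicate 1 (-0.56) at 6 h, and that of Cavin1 without any one of the 4 arrays of 6 h (-0.65 to -0.79). Of the receptors related to Tshr, Lgr4 was lower at 1 h, at -0.53 (adjusted p = 0.0361; 0.0582 without further normalization and 0.0543 without the trend). Its call was lost without c-Fos shRNA replicate 1 (-0.34) or without either control array at 1 h (-0.55 and -0.52). In the mean of both shRNAs, Lgr5 rose from 1 h to 3 h by 1.54 (adjusted p = 3.52e-06). The difference between the shRNAs in that change was -0.81 ± 0.24 (adjusted p = 0.534). Between the shRNAs at 0 h, C2cd4c was at 0.46 ± 0.16, Grb2 at 0.74 ± 0.12, Rnh1 at 0.95 ± 0.14 and Lgr4 at -0.66 ± 0.15. Rnase4 was at 0.44 ± 0.19 and Cavin1 at -0.33 ± 0.20. At 1 h limma called 14.5% of all probe sets tested, and 20.7% in the fit with 1 probe set per gene. Among the 32 relatives 8 were called at 1 h (25.0%), with a median of 0.04 against -0.01 for all. The count was 5 without control replicate 1 at 1 h, and 13 with the replicate block, which called 28.6% of all probe sets.

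**Figure D4:**
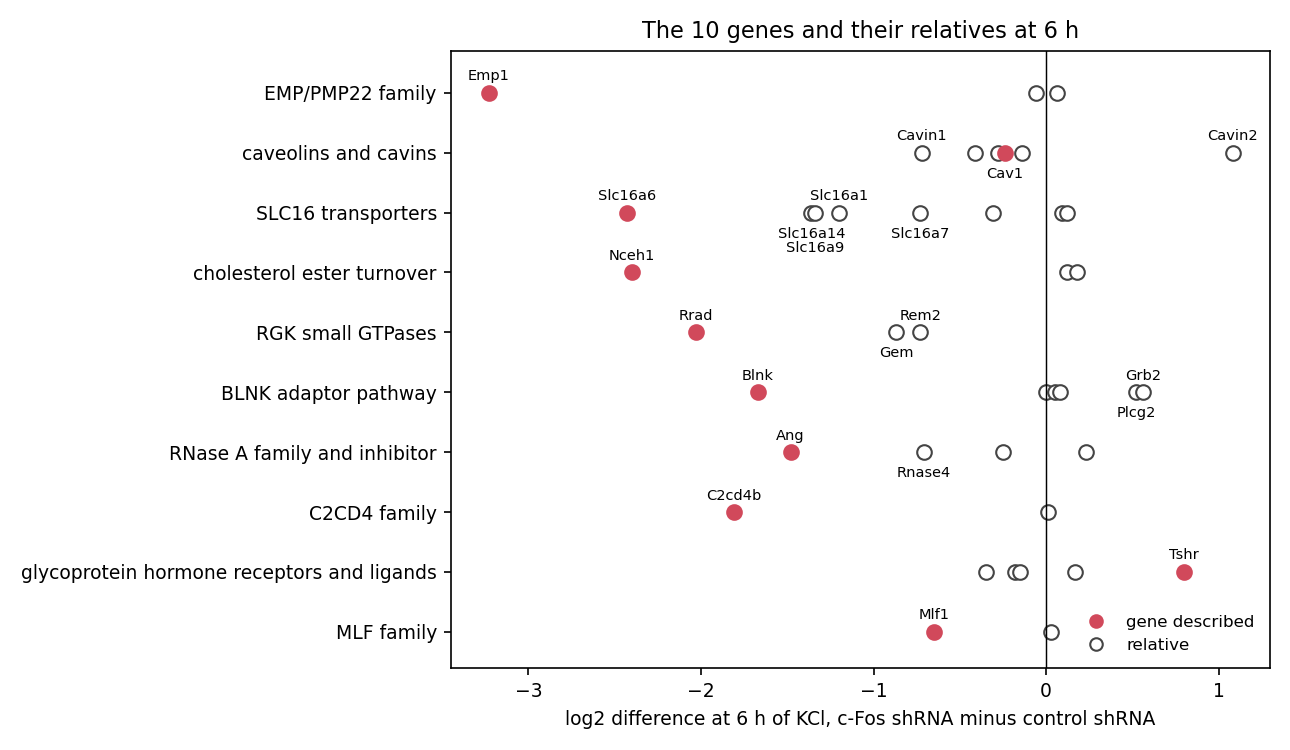
Log2 difference at 6 h of KCl, c-Fos shRNA minus control shRNA, of the 10 genes (filled) and their 32 tested relatives (open), each by its brightest probe set, in rows by family. Names are given for the 10 genes and for relatives at least 0.5 from 0. Emp1 lies at -3.23 with its relatives Emp2 and Pmp22 near 0, and the SLC16 row holds several genes below -1.

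The genes with the most similar profile over the 8 group means, by Pearson r and as a description only, were taken from 1741 genes (1742 for Tshr) whose group means varied by an SD of at least 0.5. They share arrays with the member. Emp1 was closest to Onecut2 (0.972) and Cthrc1 (0.965), C2cd4b to Fgfr1 (0.990) and Tec (0.985), and Ang to Fam189a2 (0.985) and Phf21b (0.983). Mlf1 was closest to Nrf1 (0.993) and Tac1 (0.992), Rrad to Sgk1 (0.949) and Klf5 (0.944), and Blnk to Mir670hg (0.950) and Mbnl3 (0.943). Slc16a6 was closest to Ypel2 (0.993) and Slc16a14 (0.938), and Nceh1 to Nol4l (0.996) and B230217C12Rik (0.996). The profiles of Cav1 and Tshr had the least similar neighbours, Sdr42e1 (0.902) and Kcnv1 (0.870) for Cav1, and Klf2 (0.699) and Vwc2l (0.694) for Tshr.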

How the data were processed

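The authors deposited a linear intensity for each probe set on each array, made by Affymetrix processing per the labels. Its software, version and scaling are not given in the sources used. Median intensities of the arrays lay between 104.75 and 118.56 (13.2% apart), so log2(intensity + 16), computed from the deposited values, was quantile normalized. No detection calls were used, and precision is limited by the number of arrays.

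The fit was limma 3.58.1 (R 4.3.3; lmFit and eBayes with an intensity trend) with 8 group means, 16 arrays and 8 residual degrees of freedom. It ran on the 31526 of 45037 non-control probe sets whose mean log2 value was above the 30th percentile (5.786), which 15 of the 17 member probe sets passed. p-values were adjusted over all of these by Benjamini-Hochberg, and a probe set was called under 0.05. Of the 45037 probe sets, the annotation named 1 gene for 34945, several for 932 and none for 9160.

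The members and the lists of relatives and markers were chosen with earlier results of these data known. All members and their probe sets are named, with Fos, the relatives called in a tested contrast or closest by family, and the 2 genes of most similar profile per member. The contrasts of the relatives at 6 h were added after the data were seen. The fits of the change from 1 h to 3 h were planned as tests, but the members' values there are given with no p, since the pick used the 3 h arrays. On simulated arrays of 31526 probe sets, log2 changes of 1 were called in 67% of cases for the shRNA difference at 1 h, in 91% for the change from 1 h to 3 h, and in 42% for the difference between the shRNAs in that change. For log2 changes of 2 these were 99%, 100% and 84%. Each simulation held 100 changed probe sets of each size, with noise independent between arrays. Real arrays with the same replicate number deviate together, so these rates need not hold for them.

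Replicate numbers come from the labels. Deviations of same-numbered arrays correlated across probe sets in 28 of 28 pairs of groups (0.353 to 0.643, median 0.481), so the numbers were taken to pair the arrays. The tests use no block unless stated, and a blocked value stands beside a result where it changes the call. Alternatives were other normalizations, pseudocounts and filters, 1 probe set per gene, eBayes without trend, the replicate block and leaving out each array.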

Additional observations from a re-analysis of the deposited data

Results flagged for a closer look

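For Tshr (probe set 1421999_at), both 6 h arrays with control shRNA were below both 0 h arrays. With c-Fos shRNA both 6 h arrays were above both 0 h arrays. The difference between the changes was 1.5 on the log2 scale (standard error 0.23). It was not tested, since Tshr was picked on this contrast.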

How the results depend on the processing

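Across 15 tested values of the members at 1 h and 364 recomputations, 352 kept their direction and their side of the threshold, 3 lost a call, 2 gained one and 7 changed sign. The sign changes were of values near 0 that no setting called. Mlf1 at 1 h was -0.017 without further normalization, and Rrad at 1 h was 0.003 with a pseudocount of 64. Leaving out 1 array gave ranges of -0.008 to 0.029 for Mlf1, -0.12 to 0.03 for Tshr 1421999_at and -0.505 to 0.445 for Rrad. The cause was not tested. Of 146 described values over 2 standard errors, 0 changed sign in 25 settings. That limit leaves out the values nearest 0, so the lack of sign changes says little. Over all 240 described values and 5824 recomputations, 315 moved by at least the SD between the arrays of a group.

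The replicate block gained the Emp1 call at 1 h and changed no other call of the members at 1 h. In the difference between the shRNAs in the change from 1 h to 3 h, from which nothing is read, it put 3 member probe sets under the threshold, against 0 without it. Over all probe sets it moved the calls from 4579 to 9025 at 1 h, from 7541 to 11809 for the change from 1 h to 3 h, and from 2 to 202 for its difference between the shRNAs. That last count was 0 to 8 in the other settings that kept all arrays. With 2 arrays a group, and Rrad, Blnk and 2 probe sets below the filter close to the lowest signals, the precision for these dim probe sets was low: the standard error of the Rrad difference was 0.45.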
